A study of Mus musculus with 7 samples.

Results

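The 4 genes described here are Cxcl12, which encodes the chemokine CXCL12, Cxcr4 and Ackr3, which encode its 2 receptors CXCR4 and CXCR7, and Dpp4, which encodes a cell surface peptidase that degrades it. They were chosen by gene symbol, and they make 4 of the 23282 rows in each deposited table. Recombinant human CXCL12, 100 ng in 30 µl of saline, was infused into one uterine horn of C57BL/6 female mice, which were 6 weeks old per the methods of the study, and saline was infused into the opposite horn as the control. RNA of uterine tissue was measured by QuantSeq 3′ mRNA sequencing in 2 saline-treated libraries, 2 libraries taken at Day 3 after CXCL12 and 3 libraries taken at Day 8. The infused protein was human, while the transcripts counted here were those of the mouse genes, so the protein itself added no reads. The labels do not give the day of the saline-treated libraries, and they do not state whether the libraries of a group came from separate animals. The p-values below therefore measure only the spread between these libraries, which may be technical. The saline-treated horn of a mouse also shares its circulation with the CXCL12-treated horn, and no library came from an untreated mouse. The questions were whether the transcripts of the ligand, of its receptors and of its degrading enzyme differed between CXCL12-treated and saline-treated uterus, and whether they differed between the 2 days.

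CXCL12 is a secreted chemokine that guides leukocytes, stem cells and vessel-forming cells, and in the uterus it is made mainly by stromal cells. CXCR4 is its classical receptor, which signals through inhibitory G proteins. CXCR7, the product of Ackr3, is an atypical receptor that binds CXCL12 with high affinity, recruits arrestin instead of G proteins, and clears the chemokine from the tissue by taking it into the cell. DPP4, also known as CD26, removes the first pair of residues from the chemokine, which then no longer activates CXCR4. The amount of active ligand in a tissue thus depends on production, on scavenging and on cleavage, and transcript counts measure none of these steps directly.

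QuantSeq copies transcripts from a primer on the poly(A) tail, so each count stands for reads near a 3′ end. On the mouse build GRCm38 (GENCODE M21), which corresponds to the mm10 named in the submitters' processing notes, Cxcl12 spans chr6:117168535-117181367 on the plus strand, Cxcr4 chr1:128588199-128592293 on the minus strand, Ackr3 chr1:90203980-90216751 on the plus strand and Dpp4 chr2:62330073-62412231 on the minus strand. Cxcl12 has 3 protein-coding transcripts in this annotation that end at 2 places, with the nearer end at position 117175069 and the farther one at 117181366 or 117181367. Short stretches of these last exons, in the 3′ untranslated region, are shown because they mark the annotated ends next to which that primer sits. The capitals mark the poly(A) signal AATAAA, which directs cleavage of the transcript.
Cxcl12, nearer end (chr6:117175040-117175069, plus strand): tttacctgaAATAAAatctactagttgtta
Cxcl12, farther end (chr6:117181338-117181367, plus strand): tttcctAATAAAgttctgtattcaaatata
Cxcr4 (chr1:128588199-128588228, minus strand): attgttAATAAAagtcaatgataaacttaa
Dpp4 (chr2:62330073-62330102, minus strand): aagattcAATAAAttctaagtgaaaaaaca
The signal ended 15 bases before the nearer Cxcl12 end, 18 bases before the farther Cxcl12 end and the Cxcr4 end, and 17 bases before the Dpp4 end. Neither AATAAA nor ATTAAA lies in the last 60 bases of the main Ackr3 transcript, so no stretch is shown for it. The tables hold 1 value per gene symbol, and the 2 ends of Cxcl12 cannot be told apart in them. In the last 500 bases of the coding transcripts of the 4 genes, none of the 50-base words (451 to 903 per gene) occurred in a transcript of another gene, which bears on the multiple alignments that the authors also counted. Only Dpp4 has an overlapping gene in the annotation, Gm13561 on the opposite strand, and the strand setting of the counting is not given in the sources used here.

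The tables of 6 libraries hold between 6908790 and 12308982 read counts. The exception is Day 3 replicate 1, given as log2 of a normalized count, from which its counts were estimated. Day 8 replicate 1 was placed at Day 8 by its label, although its table is named for Day 3. Changes at Day 8 are therefore given with and without it. All 12 uterine identity genes checked, Hoxa10, Hoxa11, Esr1 and Pgr among them, had more than 3 counts in every library, with a summed level between 1189 and 2082 CPM. In what follows CPM are read counts scaled to 1e6 per library after TMM correction of the libraries. A change of at least 2-fold at an unadjusted P of 0.05, the fold change and P cutoffs of the study, is called a pass. The methods of the study also name a false discovery rate of 0.1. With all libraries, no gene in any of the 3 comparisons had a Benjamini-Hochberg adjusted p of 0.1 or less in edgeR or limma, and the smallest were 0.956 for Day 8 against saline, 0.623 for Day 3 against saline and 0.267 for Day 8 against Day 3. At an unadjusted P under 0.05 there were 658, 1092 and 1068 genes, and DESeq2, on counts that were estimated for Day 3 replicate 1, gave 49, 85 and 249 genes at the adjusted p of 0.1. In bulk tissue, fewer cells of a type and less RNA per cell cannot be told apart.

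Transcripts of the ligand were high in only a part of the Day 8 libraries. Cxcl12 had 386 and 608 counts in saline replicates 1 and 2, an estimated 481 and a measured 594 at Day 3 in the same order, and 375, 1703 and 1052 at Day 8 in replicates 1 to 3. These are 47.3 and 58.7 CPM in saline, 49.0 and 61.5 CPM at Day 3, and 43.7, 140 and 109 CPM at Day 8. Day 8 replicate 1 thus had the lowest level of all 7 libraries, and the other two Day 8 libraries had the highest. The exact Poisson intervals, which cover counting error only, were 134 to 147 CPM in Day 8 replicate 2 and 102 to 116 CPM in replicate 3, both above that of every other library. The mean was 53.0 ± 8.02 CPM in saline (SD, n = 2), 55.3 ± 8.80 CPM at Day 3 (SD, n = 2) and 97.7 ± 49.3 CPM at Day 8 (SD, n = 3).

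**Figure D1:**
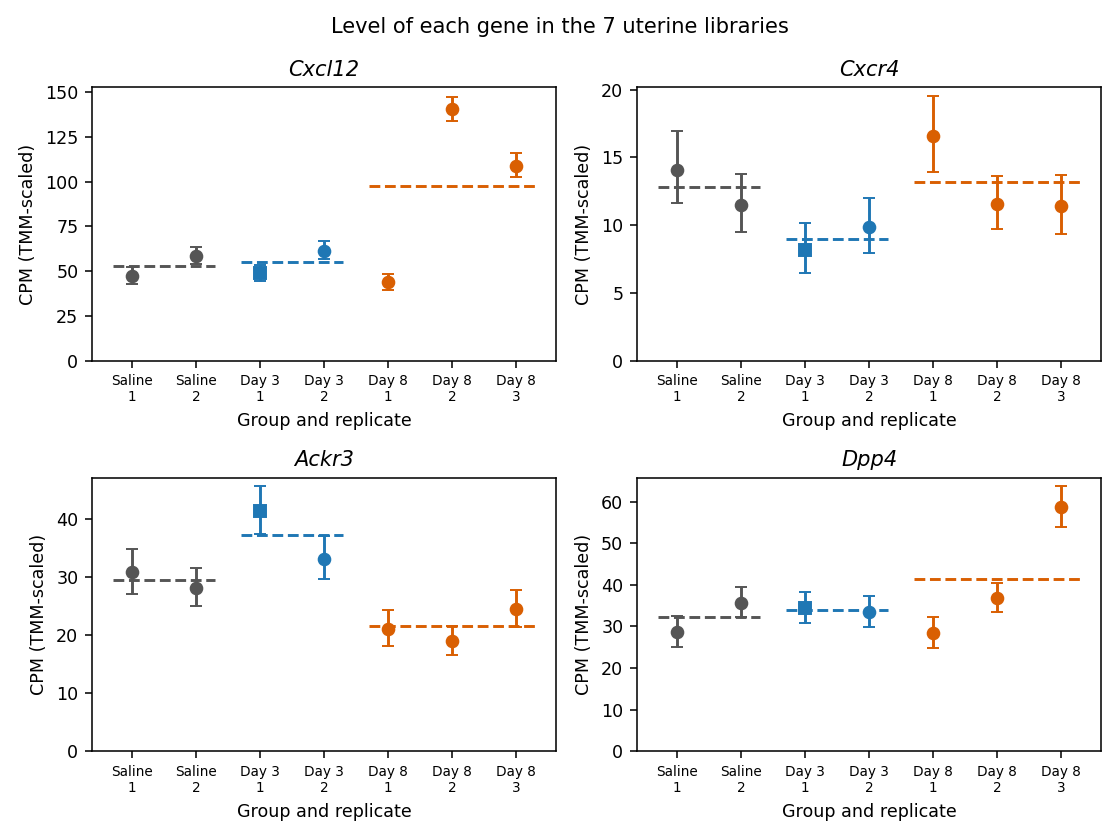
Level of Cxcl12, Cxcr4, Ackr3 and Dpp4 in each of the 7 libraries, in CPM after TMM scaling, with saline in grey, Day 3 in blue and Day 8 in orange. Bars are 95% exact Poisson intervals of the count, dashed lines are group means, and the square is the library whose counts were estimated from log2 values. Cxcl12 stands high in Day 8 replicates 2 and 3 alone, and Ackr3 lies between 19.1 and 24.5 CPM in the 3 Day 8 libraries, below the other 4.

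With all libraries at their labelled day, the change of Cxcl12 did not pass, and the Day 8 libraries were spread from 43.7 to 140 CPM. For Day 8 against saline the log2 fold change was 0.88 (standard error, SE, 0.49 and 95% interval -0.27 to 2.04), and the quasi-likelihood test of edgeR gave an unadjusted P of 0.11 and an adjusted p of 0.956. Against Day 3 it was 0.72 (SE 0.47), with an adjusted p of 0.740 by limma. Without Day 8 replicate 1, Cxcl12 passed both thresholds, as did 6.69% of 15359 genes against saline and 11.3% of 14740 genes against Day 3. With all libraries these shares were 2.94% and 4.66%. The level of Cxcl12 in the other 2 Day 8 libraries was 125 ± 22.3 CPM (SD, n = 2). The log2 fold change was 1.24 (SE 0.29, unadjusted P of 0.0059, adjusted p of 0.349 by edgeR) against saline. Against Day 3 it was 1.23 (SE 0.24, adjusted p of 0.0758 by limma) in the same libraries, where 3.31% of the 14740 genes tested had an adjusted p of 0.1 or less. With Day 8 replicate 1 counted as a Day 3 library, as the name of its table has it, the log2 fold change against Day 3 was 1.33 (adjusted p of 0.0222 by limma), where 9.36% of genes had an adjusted p of 0.1 or less. Whether the label or the table name is right was not tested. At Day 3 itself Cxcl12 was near saline, at 0.03 on the log2 scale (SE 0.51), and its interval of -1.15 to 1.20 leaves room for a change of more than 2-fold either way.

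Other measurements also differed between the libraries, and only some of them were highest where Cxcl12 was. Day 8 replicates 2 and 3 had the highest median, though not both the highest sum, of progesterone-induced uterine genes. The sum was 693 and 1039 CPM there, 846 and 475 CPM in saline, 348 and 402 CPM at Day 3, and 472 CPM in Day 8 replicate 1. For Day 8 against saline, 10 of these genes had a value above 0 and 3 below. The median of the 13 genes, centred over the 7 libraries, was 1.64 and 1.83 on the log2 scale in Day 8 replicates 2 and 3. It was -0.04 in Day 8 replicate 1 and between -1.02 and 0.07 in the saline-treated and Day 3 libraries. The summed level of 10 endothelial markers was 329 and 347 CPM in Day 8 replicates 2 and 3 and between 172 and 259 CPM in the other 5 libraries. Pecam1, which marks endothelium, had 80.2 and 86.9 CPM in those libraries and between 37.3 and 62.0 CPM in the others. For 10 fibroblast markers, the cells that commonly make CXCL12, the sum was 16624 and 19182 CPM in Day 8 replicates 2 and 3, 10649 CPM in replicate 1, 9858 and 12531 CPM in saline, and 16692 and 18112 CPM at Day 3. The fibroblast sum at Day 3 was thus near that of Day 8 replicates 2 and 3, but its members differed. For Day 8 against Day 3, 4 of the 10 markers had a value above 0 and 6 below. Pdgfra, one of them, had 90.1 and 116 CPM in Day 8 replicates 2 and 3 and 54.9 CPM in replicate 1. It had 41.7 and 47.9 CPM at Day 3, and 102 and 44.8 CPM in saline. Day 8 replicate 2, the library with the most Cxcl12, also held RNA of ovarian genes, with 3669 CPM over 9 markers and 311 CPM of Star, a steroid-making gene, while replicate 3 had 13.0 and 8.91 CPM. The ovarian sum was 101 CPM in Day 8 replicate 1, 185 and 1068 CPM in saline, and 5.61 and 7.97 CPM at Day 3. None of these 9 or 10 endothelial, fibroblast and ovarian markers was at 0 in all libraries, and the part of these tissues and of hormonal state in the Cxcl12 values was not tested.

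Cxcr4 was lowest in the Day 3 libraries. It had 115 and 119 counts in saline, an estimated 80 and a measured 95 at Day 3, and 142, 140 and 110 at Day 8. These are 14.1 and 11.5 CPM in saline, 8.16 and 9.83 CPM at Day 3, and 16.6, 11.5 and 11.4 CPM at Day 8. Both Day 3 libraries lay below all the others, and the saline-treated and Day 8 libraries overlapped. On these low counts the intervals were wide, at 9.51 to 13.7 CPM in saline replicate 2 and 7.95 to 12 CPM in Day 3 replicate 2.

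No comparison of Cxcr4 passed a threshold. The log2 fold change was -0.45 (SE 0.35, adjusted p of 0.669 by limma) for Day 3 against saline and 0.45 (SE 0.32, adjusted p of 0.751 by limma) for Day 8 against Day 3. For Day 8 against saline it was 0.04 (SE 0.34, adjusted p of 0.993 by edgeR), with an interval of -0.76 to 0.85 that allows 1.80-fold more. Without Day 8 replicate 1, the value for Day 8 against saline turned to -0.15 and that against Day 3 was 0.25. On the quantile-normalized scale used for the Day 3 tests, 22.5% of 14830 genes had both Day 3 libraries below both saline-treated libraries, 15.7% had all Day 8 libraries above both Day 3 libraries, and 7.90% had both Day 3 libraries below the other 5, as Cxcr4 did. Leukocytes carry CXCR4, and Ptprc, which encodes the leukocyte surface protein CD45, had 58.4 and 27.3 CPM in saline, 19.5 and 20.6 CPM at Day 3 and 17.3, 26.6 and 43.6 CPM at Day 8. The summed level of 7 leukocyte markers was 222 to 228 CPM at Day 3, 270 to 356 CPM in saline and 229 to 412 CPM at Day 8. Day 8 replicate 1 had the most Cxcr4 and the least Ptprc, and the part of leukocytes in the Cxcr4 values was not tested.

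Ackr3 was the member with the smallest P in any comparison when all libraries were kept at their labels, and it was lowest at Day 8. It had 252 and 292 counts in saline, an estimated 407 and a measured 321 at Day 3, and 181, 231 and 237 at Day 8. These are 30.9 and 28.2 CPM in saline, 41.5 and 33.2 CPM at Day 3, and 21.1, 19.1 and 24.5 CPM at Day 8. All 3 Day 8 libraries were below both saline-treated libraries, and both Day 3 libraries were above them. The mean was 29.5 ± 1.92 CPM in saline (SD, n = 2), 37.4 ± 5.85 CPM at Day 3 (SD, n = 2) and 21.6 ± 2.77 CPM at Day 8 (SD, n = 3).

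Between the 2 days Ackr3 was 1.73-fold lower at Day 8, which is -0.79 on the log2 scale (SE 0.25, 95% interval -1.36 to -0.21). The unadjusted P was 0.013 and the adjusted p over all genes 0.688 by limma, and the change did not reach 2-fold, so it was not a pass. Of all genes tested in this comparison, 1.85% had an unadjusted P as small. Without Day 8 replicate 1 the log2 fold change was -0.78 (adjusted p of 0.178 by limma), and with that library counted as Day 3 it was -0.53 (adjusted p of 0.359 by limma). Against saline the log2 fold change was -0.45 at Day 8 (SE 0.27, adjusted p of 0.956 by edgeR) and 0.33 at Day 3 (SE 0.27, adjusted p of 0.681 by limma). Neither passed, and the 95% interval of each included 0, although neither pair of groups overlapped. Without Day 8 replicate 1 the change at Day 8 against saline was -0.44 (SE 0.29). Groups that do not overlap are common with so few libraries. All Day 8 libraries were below both saline-treated libraries in 9.55% of 14830 genes, below both Day 3 libraries in 16.0%, and below all 4 in 3.59%, and both Day 3 libraries were above both saline-treated libraries in 24.0%. Adipocyte RNA also differed between the libraries, with 9 markers summing to 1260 and 3421 CPM in saline, 3739 and 472 CPM at Day 3, and 355, 561 and 410 CPM at Day 8. Day 3 replicate 2 had as little adipocyte RNA as the Day 8 libraries and more Ackr3 than either saline-treated library on the TMM scale, though not relative to the library total. The part of adipocytes in the Ackr3 values was not tested.

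**Figure D2:**
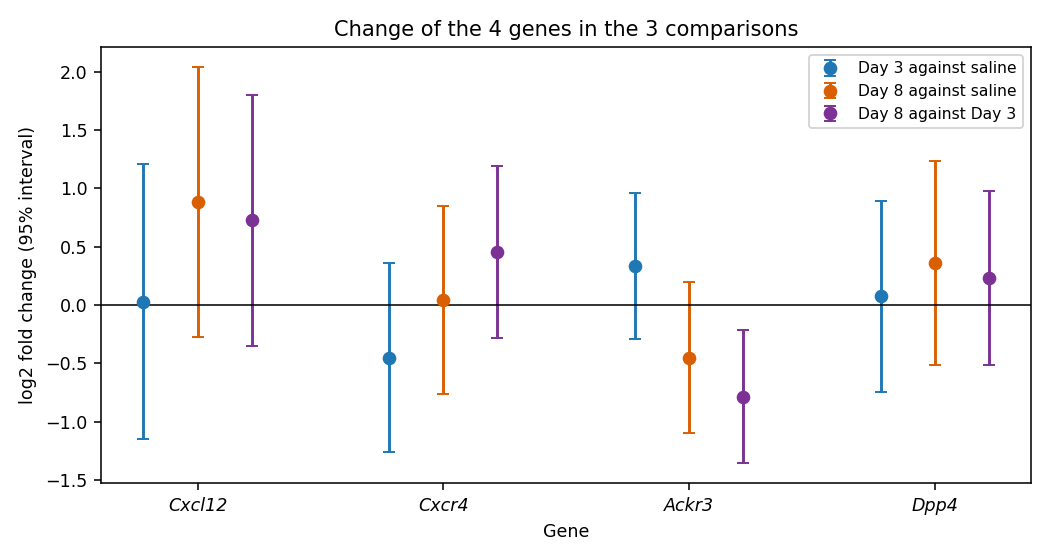
Log2 fold changes of the 4 genes for Day 3 against saline (limma), Day 8 against saline (edgeR) and Day 8 against Day 3 (limma), with 95% intervals as bars. Of the 12 intervals, that of Ackr3 for Day 8 against Day 3, from -1.36 to -0.21, is the one that leaves out 0.

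Scaling bears on these levels. With counts divided by the library total alone, the median of all genes moved by -0.26 on the log2 scale for Day 8 against saline and by -0.27 for Day 3 against saline, and it moved by 0.01 for Day 8 against Day 3. Relative to the library total, Ackr3 had 36.5 and 30.8 CPM in saline, 38.9 and 32.2 CPM at Day 3, and 18.9, 18.8 and 23.8 CPM at Day 8. The Day 8 libraries then still lay below the other 4, while saline and Day 3 overlapped. The log2 fold change of Ackr3 for Day 8 against saline was -0.71 on that scale (unadjusted P of 0.040, adjusted p of 0.653 by edgeR). For Day 3 against saline, Cxcr4 was at -0.75 (adjusted p of 0.433 by limma) on that scale and Ackr3 at 0.08, and Cxcl12 and Dpp4 turned to -0.19 and -0.17. For Day 8 against saline, Cxcr4 turned to -0.23.

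Dpp4 differed little between the groups apart from a single library. It had 234 and 370 counts in saline, an estimated 337 and a measured 323 at Day 3, and 243, 447 and 567 at Day 8. These are 28.7 and 35.7 CPM in saline, 34.4 and 33.4 CPM at Day 3, and 28.3, 36.9 and 58.7 CPM at Day 8. Day 8 replicate 3 was above all others, and Day 8 replicate 1 was at the level of saline replicate 1. The log2 fold change was 0.36 (SE 0.37, 95% interval -0.52 to 1.24, adjusted p of 0.956 by edgeR) for Day 8 against saline. It was 0.57 without Day 8 replicate 1 and 0.021 without Day 8 replicate 3, so its size rested on which Day 8 libraries were kept. It was 0.07 (SE 0.35) for Day 3 against saline and 0.23 (SE 0.32) for Day 8 against Day 3, with adjusted p of 0.945 and 0.867 by limma. The value against Day 3 turned to -0.05 without Day 8 replicate 3. DPP4 also marks adventitial fibroblasts and mesothelium, and the summed level of 10 of their markers lay between 472 CPM in Day 8 replicate 2 and 598 CPM in Day 8 replicate 3. The library with the most Dpp4 thus also had the highest sum, but the library with the next most Dpp4, Day 8 replicate 2, had the lowest. Day 8 replicate 1 had the least Dpp4 and a sum of 571 CPM. The part of these cells in the Dpp4 values was not tested.

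A ratio of 2 genes within a library does not depend on how libraries are scaled. Counts of different genes were not compared as levels, and only the movement of a ratio between libraries is described. The log2 ratio of Cxcr4 to Ackr3, the signalling receptor over the scavenging receptor, was -1.13 and -1.30 in saline. It was -2.34 and -1.76 at Day 3 and -0.35, -0.72 and -1.11 at Day 8. With libraries at their labelled day, the 3 groups did not overlap, with Day 3 lowest, saline between and Day 8 highest. Day 8 replicate 3 was close to saline replicate 1. If Day 8 replicate 1 is counted as Day 3, the Day 3 ratios run from -2.34 to -0.35 and overlap both other groups. How often pairs of genes separate in this way was not computed. The mean was -1.21 ± 0.12 in saline (SD, n = 2), -2.05 ± 0.41 at Day 3 (SD, n = 2) and -0.73 ± 0.38 at Day 8 (SD, n = 3), or -0.91 ± 0.27 (SD, n = 2) without Day 8 replicate 1.

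For the ligand over its peptidase, the log2 ratio of Cxcl12 to Dpp4 was 0.72 in both saline-treated libraries, 0.51 and 0.88 at Day 3, and 0.63, 1.93 and 0.89 at Day 8. The 3 groups overlapped, and only Day 8 replicate 2 was far from the rest. Among the 4 other pairs of members, the Day 8 libraries stood above all the others for Dpp4 to Ackr3 alone, at 0.42, 0.95 and 1.26 against a range of -0.27 to 0.34. Cxcl12 to Ackr3 had 1.05, 2.88 and 2.15 at Day 8, against a range of 0.24 to 1.06, so that Day 8 replicate 1 fell just within saline. These 2 pairs were picked after the values of all 6 pairs were seen, and no ratio was tested.

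**Figure D3:**
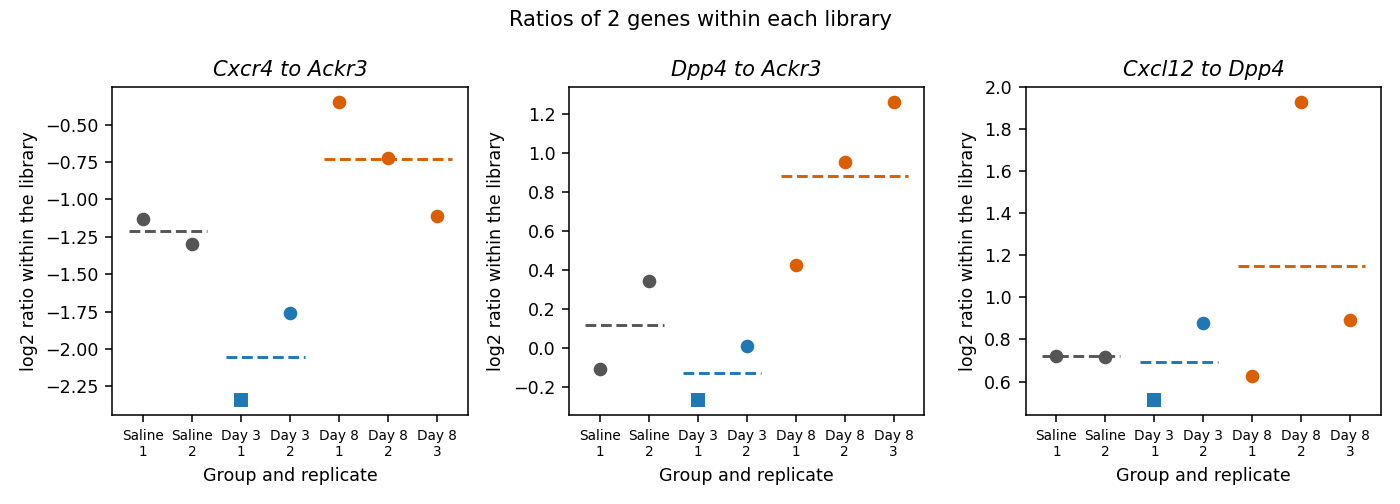
Log2 ratios within each library for Cxcr4 to Ackr3, Dpp4 to Ackr3 and Cxcl12 to Dpp4, with saline in grey, Day 3 in blue and Day 8 in orange, group means as dashed lines, and the library deposited as log2 values as a square. The vertical axes do not start at 0. With libraries at their labelled day, Cxcr4 to Ackr3 runs from -2.34 to -1.76 at Day 3, -1.30 to -1.13 in saline and -1.11 to -0.35 at Day 8.

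The wider pathway was described from 7 lists with 132 genes in all. For Day 8 against saline, 124 were tested and 2 passed, 1 higher and 1 lower, against 2.94% of all 15388 genes. Without Day 8 replicate 1, 8 were higher and 4 lower of 124, where 6.69% of all genes passed. For Day 3 against saline, 122 were tested, of which 4 were higher and 4 lower, against 4.50% of all 14830 genes. For Day 8 against Day 3, 3 were higher and 3 lower of 122, against 4.66% of all genes, and without Day 8 replicate 1, 11 were higher and 3 lower, where 11.3% of all genes passed. The median log2 fold change over these genes was -0.05, -0.09 and 0.08, beside -0.01, 0.01 and 0.00 over all genes. The lists are described by counts alone, without a test of the list.

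Of 6 other ligands of CXCR4 or CXCR7, 5 were tested and none passed in any comparison by edgeR or limma, where 0, 0 and 1 had an unadjusted P under 0.05. By DESeq2, 2 passed for Day 8 against saline (Penk and Cxcl14), 1 for Day 3 against saline (Cxcl14) and 0 for Day 8 against Day 3, where 3.06%, 5.17% and 5.74% of all genes passed by DESeq2. Penk, which encodes the precursor of the enkephalins, opioid peptides that CXCR7 also scavenges, had 38.7 and 29.0 CPM in saline, 35.7 and 35.9 CPM at Day 3 and 29.0, 95.8 and 88.5 CPM at Day 8. Day 8 replicates 2 and 3 were thus the high libraries for Penk as for Cxcl12, a pattern whose share over all genes was not counted. The log2 fold change of Penk for Day 8 against saline was 1.07 (SE 0.52, adjusted p of 0.956 by edgeR). Cxcl14, a chemokine that can bind CXCR4, had 201 CPM in saline replicate 1 and between 36.2 and 77.5 CPM in all others, which gave -1.44 (SE 0.64) for Day 3 against saline. Hmgb1, whose product forms a complex with CXCL12, had a log2 change of -0.71 (SE 0.28) for Day 8 against Day 3.

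Of 14 other chemokine receptors, 13 were tested for Day 8 against saline and 12 in the other comparisons. Cxcr2, the neutrophil receptor, was lower at Day 8 than in saline with a log2 change of -4.04 (SE 0.93, unadjusted P of 0.0032, adjusted p of 0.956 by edgeR). It had 25 and 18 counts in saline, 3 (estimated) and 5 at Day 3, and 1, 1 and 2 at Day 8. The Day 8 counts and the estimated one are at or under the 3 counts taken as the floor. Of 8 neutrophil markers, Cxcr2 among them, 5 were tested for Day 8 against saline, and S100a8 and S100a9 were the others that passed, at -2.49 and -2.79. Retnlg was higher in all 3 Day 8 libraries than in saline, at 85.4, 133 and 163 CPM against 76.8 and 60.5 CPM. The sum over the 8 markers was 113, 147 and 175 CPM at Day 8 and 132 and 204 CPM in saline, so the list as a whole overlapped between the groups. The part of neutrophils in the Cxcr2 values was not tested. Ackr4, an atypical receptor that scavenges other chemokines, was higher at Day 3, with 16.3 and 10.2 CPM against 2.70 and 5.69 CPM in saline and a log2 change of 1.79 (SE 0.52, adjusted p of 0.623 by limma). At Day 8 it had 7.0, 7.75 and 14.7 CPM. Ccrl2 had the smallest P of the list for Day 8 against Day 3, with a log2 change of 0.77 (SE 0.47).

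Of 19 genes in the list of peptidases, which also holds relatives of Dpp4 and genes that are not peptidases, such as Ada, 14 were tested. Dpp6, a relative of Dpp4 that lost its peptidase activity and serves potassium channels, was higher than in saline at both days. Its counts were 9 and 12 in saline, 34 (estimated) and 39 at Day 3, and 16, 56 and 33 at Day 8. The log2 fold changes were 1.89 (SE 0.53) at Day 3 and 1.54 (SE 0.65) at Day 8. Both comparisons use the same saline-treated libraries. Mmp9, a metallopeptidase that cleaves CXCL12, was lower at Day 3 by -1.12 (SE 0.44), with 36.8 and 19.3 CPM in saline, 12.8 and 11 CPM at Day 3, and 9.10, 16.4 and 16.9 CPM at Day 8.

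Mmp3, another metallopeptidase, was higher at Day 8 than at Day 3 by 1.81 (SE 0.51), with 3.16 and 2.79 CPM at Day 3, 7.12, 14.2 and 15.7 CPM at Day 8, and 12.3 and 4.83 CPM in saline. Cpn1, a subunit of the carboxypeptidase that trims the other end of CXCL12, was lower at Day 8 than at Day 3. It had 139 (estimated) and 125 counts at Day 3 and 63, 3 and 0 at Day 8. Ada, adenosine deaminase, was lower as well, by -1.23 (SE 0.47). With all libraries, none of these changes had an adjusted p under 0.62 by edgeR or limma.

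Of 20 genes for heparan sulfate and matrix, which hold CXCL12 on cell surfaces, 17 had a value below 0 for Day 3 against saline. The median was -0.36 beside 0.01 over all genes, and it was the farthest from 0 of the list medians in the 3 comparisons. For Day 8 against saline 12 were below 0 (median -0.18), and for Day 8 against Day 3 15 were above 0 (median 0.24). The genes that passed for Day 3 against saline were Hs6st2, a sulfotransferase, at -2.78 (SE 0.74) and Fn1, fibronectin, at -1.19 (SE 0.33). Hs6st2 had 46 and 71 counts in saline, 9 (estimated) and 5 at Day 3, and 14, 95 and 19 at Day 8. It was higher at Day 8 than at Day 3 by 1.79 (SE 0.68). Fn1 had 402 and 234 CPM in saline, 164 and 157 CPM at Day 3, and 180, 143 and 159 CPM at Day 8. Sulf2, which removes sulfate from heparan sulfate, had the smallest P of the list for Day 8 against saline, at -0.79 (SE 0.25), short of 2-fold.

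Among 19 receptor partners and genes of desensitization, all were tested. Rgs3, which ends G protein signals, was higher at Day 3 than in saline by 1.20 (SE 0.39) and lower at Day 8 than at Day 3 by -1.49 (SE 0.36). It had 17.7 and 30.1 CPM in saline, 48.9 and 59.6 CPM at Day 3, and 27.4, 15.0 and 17.3 CPM at Day 8, so that the Day 3 libraries stood above all others. Adrbk2, which encodes GRK3, a kinase that desensitizes CXCR4, had -0.95 (SE 0.46) for Day 8 against saline and did not pass.

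Of 38 CXCR4 signalling genes, 37 were tested, and 1 passed in 1 comparison. Gnb2, a G protein subunit, was higher at Day 3 than in saline by 1.09 (SE 0.41), but it had 36.2 CPM in saline replicate 1 and 84.1 CPM in replicate 2, against 102 and 157 CPM at Day 3 and 72.4 to 95 CPM at Day 8. Gng2, another subunit, had 0.54 (SE 0.30) for Day 8 against saline, and Cdc42, a small GTPase of cell migration, had -0.47 (SE 0.20) for Day 8 against Day 3.

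Of 16 regulators of Cxcl12 or Cxcr4 transcription, 16 were tested for Day 8 against saline and 15 in the other comparisons. Runx1, a blood and stromal transcription factor, was lower at Day 3 than in saline by -1.04 (SE 0.34). Klf2, a factor of endothelium and lymphocytes, was higher at Day 8 than at Day 3 by 1.31 (SE 0.50), with 25.3 and 33.0 CPM at Day 3, 35, 94.5 and 107 CPM at Day 8, and 57.5 and 34.1 CPM in saline. Its high libraries were again Day 8 replicates 2 and 3, and how many of all genes share this pattern was not counted.

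Without Day 8 replicate 1, more of these genes passed at Day 8, and so did more of all genes. The share that passed against saline was 9.68% of the listed genes and 6.69% of all genes. Against Day 3 it was 11.5% and 11.3%. Against saline, Cxcr2 at -3.97 (SE 1.04) and Dpp6 at 1.82 (SE 0.58) still passed. They were joined by Penk at 1.45 (SE 0.29), Klf2 at 1.14, Ackr4 at 1.41, Ackr2 at 1.75, Rgs1 at 1.52, Fap at 1.30 and Snai2 at 1.01 among the higher genes. Cpn1, Fn1 at -1.07 and Mif at -1.02 joined the lower ones, and the adjusted p of these 12 genes was 0.215 or more by edgeR. Sulf2 at -0.79, Adrbk2 at -0.90 and Gng2 at 0.69 again did not pass. S100a8 and S100a9 were at -3.41 and -2.95, and Retnlg also passed, at 1.11.

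Against Day 3 and without that library, Mmp3 at 2.12, Hs6st2 at 2.16, Klf2 at 1.83, Ada at -1.22, Rgs3 at -1.75 and Cpn1 still passed. Penk at 1.41 (SE 0.24), Rgs1 at 1.57, Fap at 1.21, Sulf1 at 1.02, Elmo1 at 1.33, Ptk2b at 1.01 and Gpc3 at 1.26 were among the genes that joined them. The adjusted p by limma was 0.0085 for Cpn1, 0.0626 for Penk, 0.0627 for Klf2, 0.0635 for Rgs3 and 0.0957 for Rgs1, with 3.31% of all genes at 0.1 or less. Hmgb1 at -0.89, Ccrl2 at 0.76 and Cdc42 at -0.42 did not pass.

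Few of the passes with all libraries held under every alternative processing. Cxcr2 was lower at Day 8 than in saline in 13 of 13 alternatives, Hs6st2 lower at Day 3 than in saline in 11 of 11, and Rgs3 lower and Mmp3 higher at Day 8 than at Day 3 in 12 of 12, each past both thresholds. Dpp6 passed in 10 of 11 alternatives for Day 3 and in 6 of 13 for Day 8, and Ackr4 in 9 of 11. Fn1 and Runx1 passed in 8 of 11, Rgs3 at Day 3 in 7 of 11, and Mmp9 and Gnb2 in 6 of 11. Hs6st2 passed in 8, Cpn1 and Klf2 in 6 and Ada in 4 of 12 alternatives for Day 8 against Day 3.

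**Figure D4:**
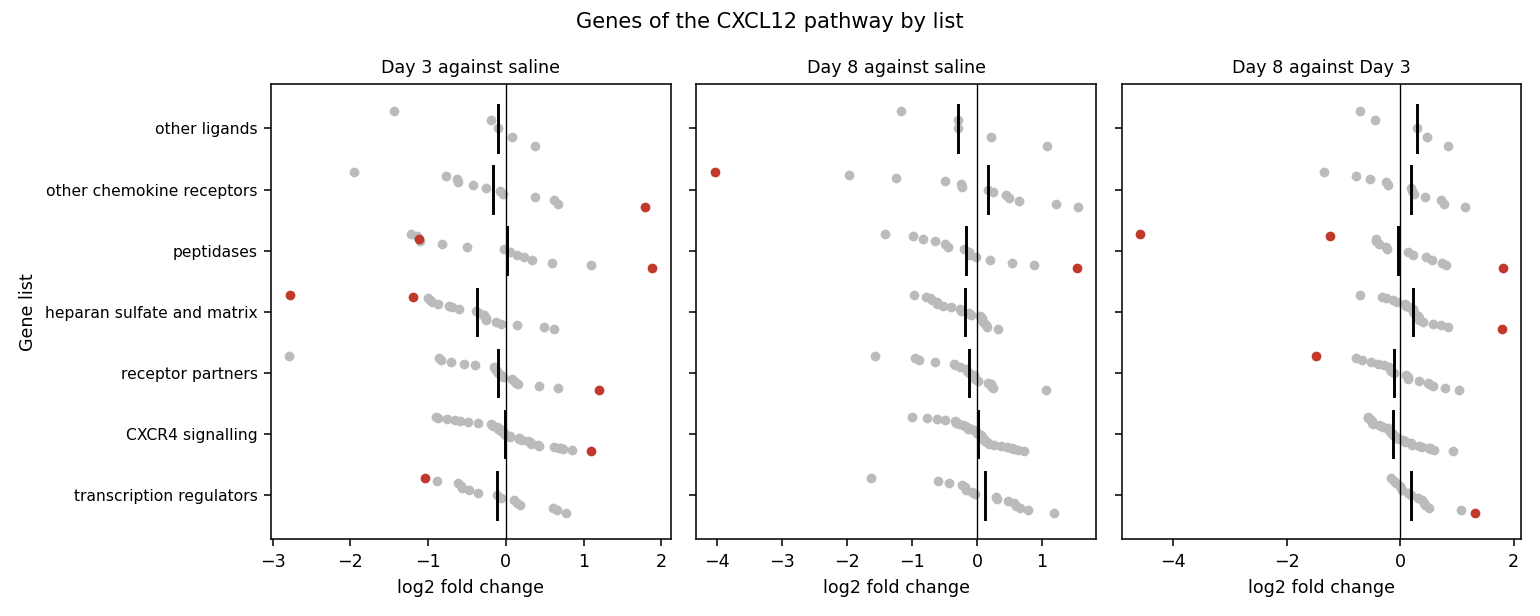
Log2 fold changes of the tested genes of 7 pathway lists in the 3 comparisons, with each gene as a point, the list's median as a black bar and the genes that passed a 2-fold change and an unadjusted P of 0.05 in red. The horizontal axes differ between the panels. Of the heparan sulfate and matrix genes, 17 of 20 lie below 0 for Day 3 against saline, with a median of -0.36, the list median farthest from 0.

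The genes whose pattern over the 7 libraries was most like that of each member were found by the root mean square difference of centred log2 values, among 11990 genes with a mean of at least 5 on that scale. This is a description over 7 libraries, which share depth and tissue makeup. For Cxcl12 they were Galnt18, Pcolce, Rab40b, Irgm2 and Cdkn1b, with differences of 0.13 to 0.16, where the median gene had 0.72 and 11 genes were under 0.2. Pcolce, which promotes the processing of procollagen, had 317 and 439 counts in saline, 490 (estimated) and 504 at Day 3, and 318, 1458 and 791 at Day 8. For Ackr3 they were Sec23ip, Reep4, Sema3f, Arfip1 and Pgm1, with differences of 0.11 to 0.15, a median of 0.51 and 38 genes under 0.2. Sema3f, a secreted guidance molecule, had 36 and 35 counts in saline, 47 (estimated) and 42 at Day 3, and 25, 34 and 27 at Day 8.

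For Cxcr4 and Dpp4 more genes lay under 0.2, a count that grows as a member itself varies less, and the median gene was at 0.46 and 0.49. Eif4ebp3, 2310010J17Rik, Cnksr3, Zfp784 and Fance were most like Cxcr4, with differences of 0.11 to 0.12, and 172 genes were under 0.2. Serinc5, Abcc1, Dleu7, Ube2e2 and Stat3 were most like Dpp4, with differences of 0.10 to 0.11, and 119 genes were under 0.2. Stat3, a transcription factor of cytokine signalling and a member of the CXCR4 signalling list, had 1030 and 1557 counts in saline, 1639 (estimated) and 1516 at Day 3, and 1116, 2441 and 2701 at Day 8. After each gene was also scaled to an SD of 1, the differences of the nearest 5 genes were 0.14 to 0.19 for Cxcl12, 0.17 to 0.29 for Cxcr4, 0.24 to 0.33 for Ackr3 and 0.19 to 0.24 for Dpp4. On that scale 2 of the 5 genes stayed for Cxcl12, 2 for Cxcr4, 3 for Ackr3 and 0 for Dpp4, whose 5 were then Lama3, Snx25, Cd55, Ttc39b and Fam188a.

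**Figure D5:**
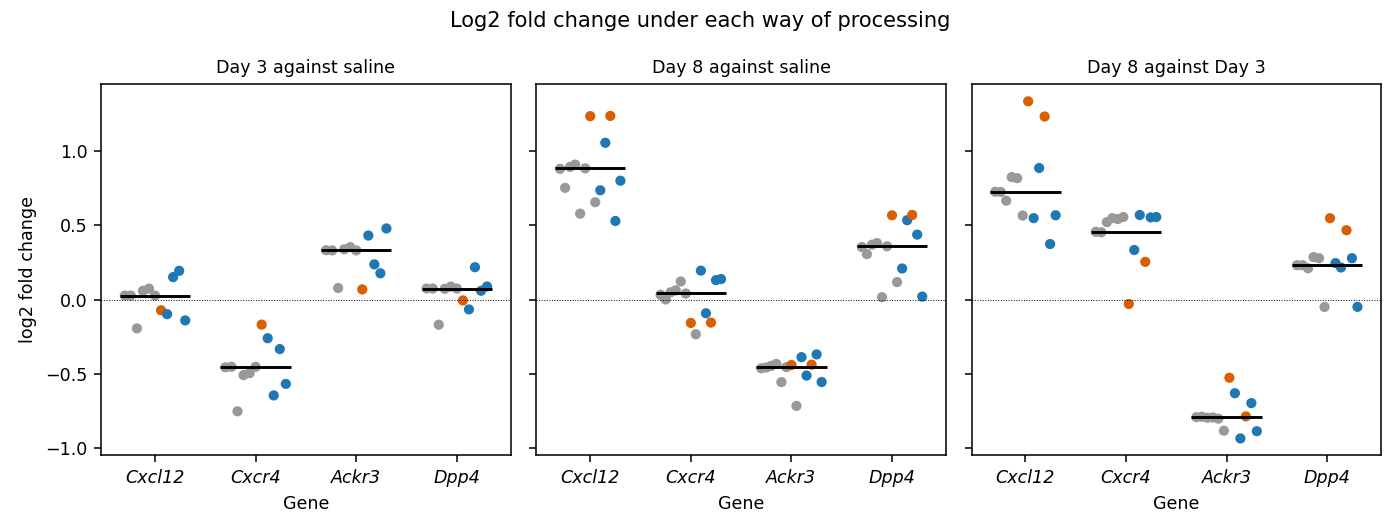
Log2 fold change of the 4 genes in the 3 comparisons, with the reported value as a black bar and each alternative processing as a point. Orange points leave out Day 8 replicate 1 or count it with Day 3, blue points leave out another library, and grey points change the scaling, filter, tool, pseudocount or block. Ackr3 stays below 0 for both comparisons of Day 8, and the highest points of Cxcl12 at Day 8, from 1.23 to 1.33, are those that move or leave out Day 8 replicate 1.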

How the data were processed

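For 6 libraries the authors deposited raw read counts per gene, and for Day 3 replicate 1 the deposited values were log2 of a normalized count plus 1. Per the study's methods and processing notes, reads were aligned with Bowtie2 and counted with Bedtools, with unique and multiple alignments included (mm10 and hg19 are listed, versions are not given in the sources used here). Undoing the log2 and dividing by 1.0515 brought 97.2% of 3661 low values within 0.1 of a whole number. That factor was picked for the largest such share, and chance gives 20% for a factor fixed beforehand. These estimated counts served for levels and for alternatives.

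The comparison of Day 8 with saline used edgeR 4.0.16 (quasi-likelihood test, TMM, filterByExpr, 15388 genes, 6 count libraries, 3 groups, 3 residual degrees of freedom). Comparisons with Day 3 used limma 3.58.1 (eBayes with a trend, 4 residual degrees of freedom) on 14830 genes with at least 10 normalized counts in 2 libraries, as quantile-normalized log2(normalized count + 1). On that scale the changes of weakly expressed genes come out too small. DESeq2 1.42.0 and R 4.3.3 were used for alternatives. A gene at 3 counts has 0.244 to 0.434 CPM of the library total, and the biological coefficient of variation over all genes was 42.2%.

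The members and lists were chosen with earlier results of these data known. The genes named were the 4 members, from each pathway list the gene with the smallest P and every gene that passed in each comparison, set marker genes, and the 5 genes most like each member. Some genes of these lists are not reported here.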

Additional observations from a re-analysis of the deposited data

Results flagged for a closer look

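Ackr3 differed between Day 8 and Day 3 by -0.79 on the log2 scale by the test of the difference itself (limma, unadjusted P of 0.013, adjusted p of 0.688). On the quantile-normalized log2 scale, both Day 3 libraries were above the saline mean, by 0.33 on average, and all 3 Day 8 libraries were below it, by -0.46 on average. Of 14830 genes, 24.0% had both Day 3 libraries above both saline-treated libraries, and 9.55% had all Day 8 libraries below them. The share of genes with both was not counted.

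The log2 ratio of Cxcr4 to Ackr3 was below the saline mean in both Day 3 libraries, by -0.84 on average, and above it in all 3 Day 8 libraries, by 0.49 on average. The log2 ratio of Dpp4 to Ackr3 lay in the same way below the saline mean at Day 3, by -0.25 on average, and above it at Day 8, by 0.76 on average. The differences in the ratios were not tested, and both ratios contain Ackr3. How often the ratios of other pairs of genes lie this way was not computed. Day 8 replicate 1, whose table is named for Day 3, had the highest Cxcr4 to Ackr3 ratio, at -0.35. The same saline-treated libraries enter both days.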

How the results depend on the processing

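The 4 genes were recomputed under 13 alternatives for Day 8 against saline, 11 for Day 3 against saline and 12 for Day 8 against Day 3. The library-size scaling for Day 8 against saline was chosen after seeing the data. Ackr3 kept its direction in all, with log2 fold changes of -0.71 to -0.37, 0.07 to 0.48 and -0.93 to -0.53, and its adjusted p was never below 0.178. Its unadjusted P for Day 8 against Day 3 was 0.05 or less in 10 of 12 alternatives. Cxcl12 at Day 8 kept its direction and passed both thresholds only without Day 8 replicate 1 or with it counted as Day 3 (1.23 against saline and 1.33 against Day 3). Leaving out 1 library at a time, Cxcl12 ranged from 0.53 to 1.24, -0.14 to 0.19 and 0.37 to 1.23 in the 3 comparisons, Cxcr4 from -0.15 to 0.20 for Day 8 against saline, and Dpp4 from 0.021 to 0.57 for Day 8 against saline, -0.066 to 0.22 for Day 3 against saline and -0.049 to 0.47 for Day 8 against Day 3. With Day 8 replicate 1 counted with Day 3, values that turned were Cxcr4 at -0.16 and -0.029 for Day 8 against saline and Day 3, and Cxcl12 at -0.071 and Dpp4 at -0.0054 for Day 3 against saline. With library-size scaling, they were Cxcr4 at -0.23 for Day 8 against saline, and Cxcl12 at -0.19 and Dpp4 at -0.17 for Day 3 against saline. The cause was not tested. None of the values that turned exceeded its standard error.

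Genes that passed numbered 453, 668 and 691 in the 3 comparisons. Leaving out 1 library gave 229 (without Day 8 replicate 3) to 1527 (without saline replicate 2), 224 (without saline replicate 1) to 2820 (without saline replicate 2) and 277 (without Day 3 replicate 1) to 1667 (without Day 8 replicate 1). Each arm left with 1 library was assumed to vary like the others. With Day 8 replicate 1 counted with Day 3 there were 1094 for Day 8 against saline and 1795 for Day 8 against Day 3, library-size scaling gave 1042 for Day 3 against saline, and DESeq2 gave 1086 for Day 8 against Day 3. Whether the replicate numbers pair the libraries is not known. Correlations of deviations were -0.05 for saline and Day 3, -0.17 and -0.08 for saline and Day 8, and -0.01 and -0.03 for Day 3 and Day 8. They cannot exclude pairing, because the deviations of 2 libraries from their group mean mirror each other. With the replicate number as a block, 157 genes passed for Day 8 against saline and 425 for Day 8 against Day 3, Dpp4 was at 0.017 for Day 8 against saline and turned to -0.049 for Day 8 against Day 3, and no call on the 4 genes changed. With 80 to 142 counts of Cxcr4 per library, depth limits its precision.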
